A study of Mus musculus with 7 samples.

Results

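The genes described here are the type I interferon-stimulated antiviral genes, a set of 36 symbols measured in cells labelled as from mouse fetal liver. A gene was a member if a probe set was annotated to its symbol alone. Of the 36 symbols, 32 were measured, among 12393 genes in all, and all 32 passed the filter on low signals that left 8591 genes for testing. The other 4 were not analysed here: no probe set used here was annotated to Ifi44, Ly6e or Xaf1, and the probe set of Isg15 is shared with Gm9706.

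The RNA was hybridised to 7 short-oligonucleotide arrays read in 1 colour. The groups were liver endothelial progenitors sorted as positive for Sca1 (Sca1+, n = 2), the same cells sorted as negative for Sca1 (Sca1-, n = 3), unsorted liver endothelial progenitors (n = 1) and a feeder cell layer from fetal liver (n = 1). No genotype, treatment, strain or gestational age is stated for any group. The arrays form a first set of 4, with titles that carry no sample number (1 of each group), and a second set of 3, with titles that name sample 2 or 3 (1 Sca1+ and 2 Sca1-). The titles do not say what separates the sets, and nothing in the labels tells whether arrays of a group had their own culture or animal, so p-values cover only the spread between these samples and part of that spread may be technical.

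Several arrays stand apart from their labels or from their group. The summed signal of 12 pan-endothelial markers was between 812 and 2486 on the 7 arrays. Between 4 and 9 of the 12 markers had a signal above 100. Tek, Tie1 and Erg were below 64 on all 7 arrays. Eng (184 to 749), Kdr (141 to 432) and Egfl7 (106 to 205) were above 100 on all 7. The summed signal of 14 macrophage and Kupffer cell markers was between 51119 and 93286. Granulocyte markers summed to 622194 on the first-set Sca1- array and to 9918 on the second-set Sca1+ array. Fibroblast markers summed to 2012 and 3191 on the first-set Sca1+ and Sca1- arrays, against at least 30416 on the other 5. The Actb 3′/5′ ratio, taken from probe sets at both ends of the transcript as a measure of RNA integrity, was 6.83 and 13.5 on the first-set Sca1+ and Sca1- arrays, between 1.87 and 2.37 on the second-set arrays, and 1.01 and 1.03 on the unsorted and feeder arrays. Signals were scaled to a 2% trimmed mean of 500 on each array, values under 64 were set to 64 for log2 differences, and levels are given below as scaled signals.

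Type I interferons are secreted by cells that sense viral nucleic acid, and they act on almost any nucleated cell through the receptor chains Ifnar1 and Ifnar2. The receptor's kinases Jak1 and Tyk2 phosphorylate Stat2, which joins Irf9 in the complex ISGF3. ISGF3 binds the interferon-stimulated response element in the promoters of genes whose products degrade viral RNA, block its translation, hold back viral entry or release, and sense further viral nucleic acid. A low tonic level of the same pathway is present in uninfected tissue.

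The response element was searched as GAAA, any 2 bases and a second GAAA, on both strands, from 250 bases before to 50 bases after each RefSeq gene start (GRCm38.p6). It was present in 12 of the 23 measured members that the promoter table holds (52.2%), against 1079 of 27025 symbols (3.99%). Counting only the bases before the start, 9 of 23 members (39.1%) and 936 symbols (3.46%) held it. A second motif, the gamma-activated sequence core (TTC, any 3 bases, GAA), was in 9 of 23 members (39.1%) and in 9.55% of all symbols. The 250 bases before the start are shown for the 5 members that hold the response element there and whose signals are given array by array below, since they carry the element that ISGF3 is known to bind. Capitals mark the element, on the strand of the gene or as its reverse complement.
Stat2: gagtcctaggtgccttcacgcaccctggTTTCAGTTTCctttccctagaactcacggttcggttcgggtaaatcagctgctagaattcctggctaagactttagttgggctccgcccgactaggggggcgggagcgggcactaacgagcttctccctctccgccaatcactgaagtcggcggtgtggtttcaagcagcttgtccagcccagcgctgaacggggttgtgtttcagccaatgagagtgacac
Ifit3: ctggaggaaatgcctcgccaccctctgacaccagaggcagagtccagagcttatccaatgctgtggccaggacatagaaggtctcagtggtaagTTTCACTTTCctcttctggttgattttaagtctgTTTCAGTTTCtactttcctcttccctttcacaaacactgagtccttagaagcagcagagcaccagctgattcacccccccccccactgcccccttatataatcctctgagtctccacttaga
Ifit1: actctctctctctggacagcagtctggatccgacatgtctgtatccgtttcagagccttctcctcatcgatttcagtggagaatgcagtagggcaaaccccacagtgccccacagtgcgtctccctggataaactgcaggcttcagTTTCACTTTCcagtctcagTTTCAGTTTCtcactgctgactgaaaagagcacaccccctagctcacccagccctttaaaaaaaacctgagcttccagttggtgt
Rsad2: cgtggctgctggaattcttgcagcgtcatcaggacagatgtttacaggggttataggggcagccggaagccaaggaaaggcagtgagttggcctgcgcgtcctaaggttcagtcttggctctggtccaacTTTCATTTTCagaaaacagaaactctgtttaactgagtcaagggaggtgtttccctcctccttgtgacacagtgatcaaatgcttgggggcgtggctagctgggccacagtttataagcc
Oas1a: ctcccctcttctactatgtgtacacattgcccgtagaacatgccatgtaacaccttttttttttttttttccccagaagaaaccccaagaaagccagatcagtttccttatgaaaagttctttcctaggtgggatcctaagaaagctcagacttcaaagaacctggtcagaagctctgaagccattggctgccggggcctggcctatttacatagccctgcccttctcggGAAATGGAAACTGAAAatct
The windows are chr10:128270248-128270497, plus strand (Stat2), chr19:34583279-34583528, plus strand (Ifit3), chr19:34640639-34640888, plus strand (Ifit1), chr12:26456453-26456702, minus strand (Rsad2) and chr5:120907526-120907775, minus strand (Oas1a). Ifit1 and Ifit3 each hold 2 separate elements. The 2 elements of Oas1a overlap and end 5 bases before the start, whereas the single element of Stat2 begins 222 bases before its start. Eif2ak2, Ifih1 and Ifitm3 hold the element only after the start, and Bst2, Cxcl10, Oas3 and Trim30a also hold it.

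Most members had lower signals in unsorted progenitors and in feeder cells than in either sorted fraction. The median signal over the 32 members was 2353 and 2750 in Sca1+ cells, 3384, 2512 and 2418 in Sca1- cells, 903 in unsorted cells and 813 in feeder cells. The unsorted array was below every one of the 5 sorted arrays in 26 of 32 members, against 17.1% of all genes tested, and the feeder array was below every sorted array in 26 of 32, against 17.7% of genes. Both arrays lay below all 5 sorted arrays in 25 members (11.2% of genes). The 2 Sca1+ arrays did not stand apart from the 3 Sca1- arrays in the same way: in 3 members both Sca1+ arrays exceeded every Sca1- array (12.1% of genes) and 0 were lower (8.45%).

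**Figure D1:**
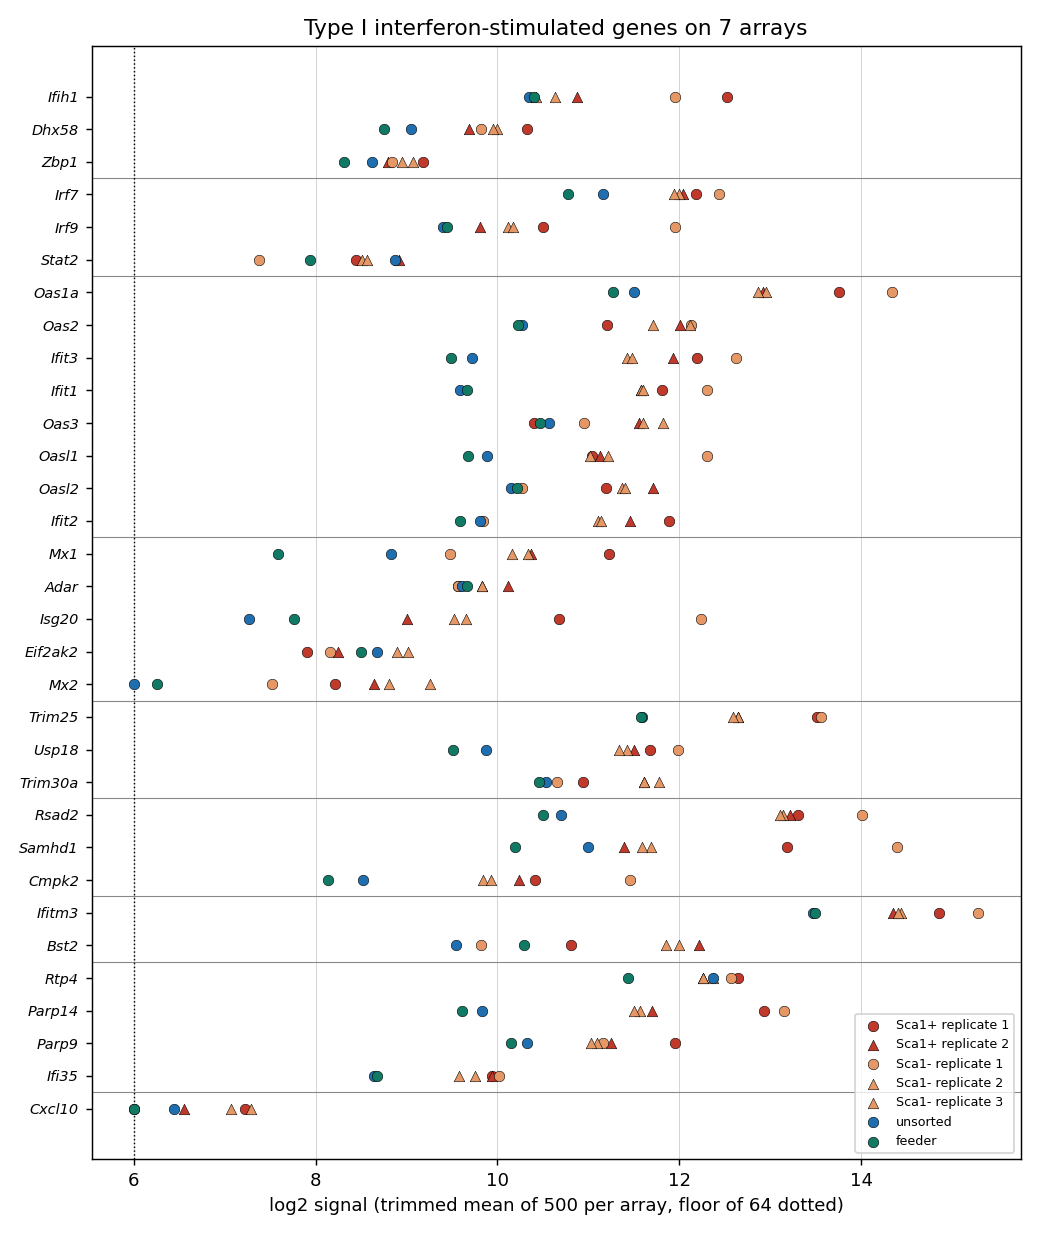
Scaled log2 signal of each of the 32 interferon-stimulated genes (rows, grouped by role from sensors at the top to the chemokine Cxcl10 at the bottom) on each of 7 arrays (1 point per array; circles are first-set and triangles second-set arrays). For 26 genes the unsorted array (blue) lies left of all 5 sorted arrays, and for 26 the feeder array (green) does.

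The sensors are Ifih1 and Dhx58, which recognise double-stranded RNA in the cytosol, and Zbp1, which binds nucleic acids in the Z conformation. Ifih1 had signals of 5894 and 1884 in Sca1+ cells, 3955, 1372 and 1584 in Sca1- cells, 1300 on the unsorted and 1357 on the feeder array. The 2 first-set sorted arrays were the high ones, and the unsorted and feeder arrays lay just under the lowest second-set array. Dhx58 ranged from 827 to 1278 on the sorted arrays and was at 531 on the unsorted and 430 on the feeder array. On the probe sets used Zbp1 differed least of the 3, with 443 to 582 on the sorted arrays, 394 unsorted and 317 on the feeder array. Its other probe set was at 52.4 and 711 in Sca1+ cells and at 34.2, 936 and 875 in Sca1- cells. That probe set was at 30.6 on the unsorted and 141 on the feeder array.

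The transcription factors are Irf7, which amplifies interferon production, and Stat2 and Irf9, subunits of ISGF3. Irf7 was between 3947 and 5556 on the sorted arrays, at 2292 in unsorted cells and at 1756 in feeder cells. Irf9 was at 898 to 3965 on the sorted arrays, 676 unsorted and 695 on the feeder array. Stat2 had signals of 348 and 484 in Sca1+ cells, 167, 364 and 377 in Sca1- cells, 470 on the unsorted and 245 on the feeder array. The lone first-set Sca1- array was the lowest for Stat2, its signal there was below that array's highest bacterial control probe set, and neither the unsorted nor the feeder array fell outside the sorted range.

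The IFIT proteins bind foreign RNA and the OAS enzymes make oligoadenylates on sensing double-stranded RNA. Ifit1 had signals of 3593 and 3070 in Sca1+ cells, 5058, 3054 and 3109 in Sca1- cells, 771 on the unsorted and 813 on the feeder array. Ifit3 was at 4690 and 3914 in Sca1+ cells, 6300, 2754 and 2845 in Sca1- cells, 846 unsorted and 720 on the feeder array. For both genes the 5 sorted arrays lay well above the other 2, with the first-set Sca1- array on top. Ifit2 departed from its neighbours within the sorted arrays, at 3783 and 2820 in Sca1+ cells and 914, 2211 and 2248 in Sca1- cells, with 898 unsorted and 768 on the feeder array. The first-set Sca1- array, the highest for Ifit1 and Ifit3, was the lowest sorted array for Ifit2 and nearly met the unsorted array. On chromosome 19 Ifit2 and Ifit3 have no protein-coding gene between them.

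Oas1a was at 13829 and 7779 in Sca1+ cells, 20764, 7945 and 7485 in Sca1- cells, 2901 unsorted and 2471 on the feeder array. Oas2 was at 2367 and 4122 in Sca1+ cells, 4484, 4451 and 3339 in Sca1- cells, 1239 unsorted and 1195 on the feeder array. In both, the unsorted and feeder arrays were below all sorted arrays. Oas3, which is adjacent to Oas2 on chromosome 5, was at 1349 to 3621 on the sorted arrays, with the unsorted (1518) and feeder (1414) arrays inside that range. Oasl1, a repressor of Irf7 translation, was at 2068 to 5077 on the sorted arrays and at 948 and 818 on the unsorted and feeder arrays. Oasl2 was at 1236 to 3352 on the sorted arrays, 1132 unsorted and 1192 on the feeder array.

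Further effectors act on RNA or its translation. The GTPase Mx1 was at 2392 and 1321 in Sca1+ cells, 714, 1295 and 1145 in Sca1- cells, 455 in unsorted cells and 192 in feeder cells. It was the only member of the 30 above a signal of 100 on either array whose feeder signal was at least 2-fold below the unsorted one (15.9% of genes), and 0 members were at least 2-fold above it (4.08% of genes). Mx2 was at 296 and 399 in Sca1+ cells, 184, 613 and 447 in Sca1- cells, 58.8 unsorted, which is under the floor of 64, and 76.2 on the feeder array. The exonuclease Isg20 was at 1635 and 515 in Sca1+ cells, 4832, 738 and 803 in Sca1- cells, 154 on the unsorted and 217 on the feeder array. Its first-set sorted signals were the high ones. The signals of Mx2 and Isg20 on the unsorted array were below the highest of 27 bacterial control probe sets there (170), so their differences against that array are lower bounds.

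Eif2ak2, the kinase PKR that halts translation on sensing double-stranded RNA, was at 241 and 304 in Sca1+ cells, 286, 476 and 517 in Sca1- cells, 409 unsorted and 363 on the feeder array. Its unsorted and feeder signals lay among the sorted ones. The RNA editing enzyme Adar was also within the sorted range (756 to 1109) on the unsorted (781) and feeder (813) arrays.

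Usp18, which removes Isg15 from proteins and damps receptor signalling, was at 3280 and 2891 in Sca1+ cells, 4051, 2754 and 2588 in Sca1- cells, 936 unsorted and 727 on the feeder array. Trim25, a ubiquitin ligase, was at 11697 and 6392 in Sca1+ cells, 12037, 6389 and 6181 in Sca1- cells, 3076 unsorted and 3051 on the feeder array. In both, the sorted arrays were all more than 2-fold above the unsorted array. Trim30a was at 1613 to 3500 on the sorted arrays, 1479 unsorted and 1408 on the feeder array.

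Rsad2 (viperin) makes a nucleotide that ends viral RNA chains, and its neighbour Cmpk2 is a mitochondrial nucleotide kinase. Rsad2 was at 10163 and 9494 in Sca1+ cells, 16535, 9026 and 8804 in Sca1- cells, 1659 on the unsorted and 1452 on the feeder array. Cmpk2 was at 1364 and 1211 in Sca1+ cells, 2812, 916 and 976 in Sca1- cells, 368 unsorted and 281 on the feeder array. For this adjacent pair the first-set Sca1- array was the highest, the other 4 sorted arrays lay close together, and the unsorted and feeder arrays lay far below. The dNTP hydrolase Samhd1 had a wider sorted range on the probe set used, from 2681 to 21504, with 2049 unsorted and 1171 on the feeder array. Another Samhd1 probe set was at 3562 to 7153 on the sorted arrays, 1856 unsorted and 2259 on the feeder array.

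The membrane protein Ifitm3, which hinders viral fusion, was at 29765 and 20930 in Sca1+ cells, 40030, 22287 and 21754 in Sca1- cells, 11392 unsorted and 11561 on the feeder array. The unsorted and feeder signals were alike and below all sorted signals. Bst2 (tetherin), which holds budding virions at the cell surface, was at 901 to 4750 on the sorted arrays, 746 unsorted and 1256 on the feeder array.

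Parp14 and Parp9 are ADP-ribosyltransferase family members encoded close together on chromosome 16. Parp14 was at 7828 and 3315 in Sca1+ cells, 9135, 3037 and 2896 in Sca1- cells, 907 unsorted and 781 on the feeder array. Parp9 was at 3957 and 2428 in Sca1+ cells, 2292, 2180 and 2086 in Sca1- cells, 1286 unsorted and 1136 on the feeder array. Both were higher on all sorted arrays than on the other 2. Ifi35 was at 767 to 1037 on the sorted arrays, 399 unsorted and 410 on the feeder array. Rtp4, a chaperone for membrane receptors, differed between the unsorted and feeder arrays: it was at 4899 to 6386 on the sorted arrays, 5315 in unsorted cells and 2781 in feeder cells. The chemokine Cxcl10 was low throughout, from 33.6 to 156 on the sorted arrays, 87.2 unsorted and 40.8 on the feeder array, and on the first-set Sca1-, unsorted and feeder arrays it was below the highest bacterial control.

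The unsorted array was compared with the sorted arrays over all 8591 genes with limma, with group as the only term; the lone unsorted array was assumed to vary like the sorted ones. The difference (unsorted minus the mean of the Sca1+ and Sca1- group means, log2) was below 0 in 30 of 32 members, with a median of -1.30 and a range from -2.89 to 0.46, against a median of 0.17 over all genes tested. At an adjusted p of 0.05, 0 members and 0 genes (0%) passed, while 14 members were lower and 0 were higher at an unadjusted p under 0.05. Among all genes 301 were lower and 350 higher at that unadjusted level. The smallest p values belonged to Rsad2, with a difference of -2.64 ± 0.52 (SE; 6.25-fold higher on the sorted arrays), Ifit1 at -2.17 ± 0.49 (4.51-fold), Ifit3 at -2.23 ± 0.58 (4.69-fold), Usp18 at -1.71 ± 0.47 (3.28-fold), Mx2 at -2.48 ± 0.71 (at least 5.57-fold) and Oas2 at -1.52 ± 0.50 (2.87-fold). The adjusted p (limma, Benjamini-Hochberg over all genes) was 0.653 for each of these 6.

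**Figure D2:**
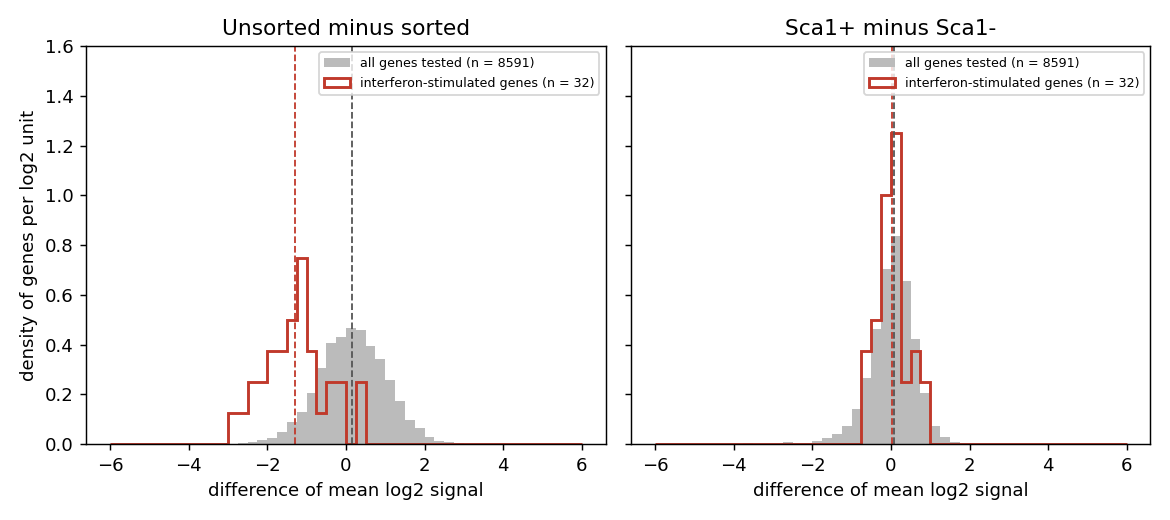
Density of log2 differences over all 8591 genes tested (grey) and over the 32 interferon-stimulated genes (red outline), for unsorted minus sorted (left) and Sca1+ minus Sca1- (right); dashed lines are the medians. On the left the members' median is -1.30 against 0.17 for all genes, and on the right the medians are 0.02 and 0.07.

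With the array set as a further term in the limma fit, the unsorted array is in effect set against the first-set sorted arrays, and 17 of 32 members were lower (7.31% of genes) and 0 higher. Those 17 were Cmpk2, Ifi35, Ifih1, Ifit1, Ifit3, Ifitm3, Irf7, Irf9, Isg20, Oas1a, Oasl1, Parp14, Parp9, Rsad2, Samhd1, Trim25 and Usp18. Their smallest adjusted p (limma) was 0.00684, for Parp14 at -3.22 ± 0.29 (SE). Isg20 was at -4.19 (adjusted p = 0.00697) and Rsad2 at -2.97 (adjusted p = 0.00980). The median over members was -1.46, against 0.25 over all genes. Without the Sca1+ replicate 2 array, which leaves 1 Sca1+ array, the median over members was -1.46. Without the Sca1- replicate 3 array the count of members was 11, with 303 genes lower in all, against 628 with every array. Without the Sca1- replicate 1 array it was 23, with 1469 genes lower in all. In that fit the residual spread comes from Sca1- replicates 2 and 3 alone. The count of members was 8 with no filter on low signals and 12 with a higher floor or with no intensity trend. It was 13 when the block was the replicate number instead. The first-set sorted arrays are those with the high Actb 3′/5′ ratios, and the part of that ratio in this count was not tested.

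Against the second set alone, in which the Actb ratio was 1.87 to 2.37, still above the 1.01 of the unsorted array, the unsorted array was lower in 29 of 32 members with a median of -1.15 (0.09 over all genes), and against the first set it was lower in 29 with a median of -1.46. Taken array by array, the unsorted signal was lower than that of Sca1+ replicate 1 in 28 members, Sca1+ replicate 2 in 30, and Sca1- replicates 1, 2 and 3 in 28, 30 and 30. Median differences were -1.34, -1.16, -1.45, -1.16 and -1.12 in the same order, while the median over all genes lay between 0.05 and 0.31. No single sorted array therefore carried the direction. Isg20 differed by -4.19 against the first set and -2.03 against the second, Parp14 by -3.22 and -1.79, and Samhd1 by -2.79 and -0.51. Usp18 (-1.96 and -1.57), Rsad2 (-2.97 and -2.47) and Mx1 (-1.52 and -1.48) differed by similar amounts against both sets. In the opposite order, Mx2 was at -1.87 and -2.84 and Bst2 at -0.77 and -2.52.

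**Figure D3:**
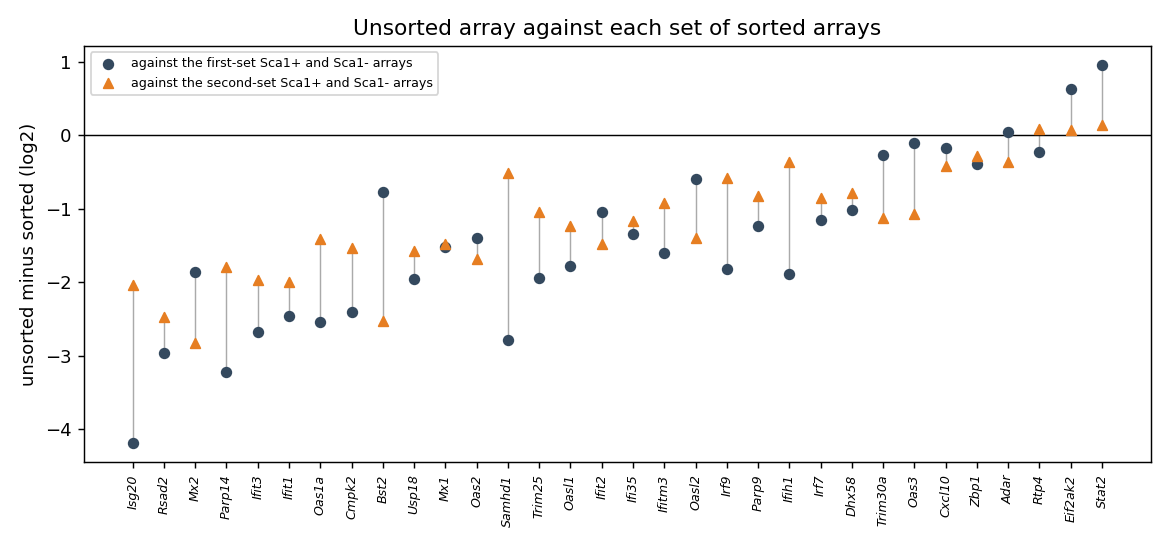
Log2 difference of the unsorted array from the mean of the first-set sorted arrays (circles) and of the second-set sorted arrays (triangles) for each of the 32 genes, ordered by the difference from all sorted arrays; grey lines join the values of a gene. In each set 29 of 32 points lie below 0, with medians of -1.46 and -1.15.

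Genes with a high mean signal were more often lowest on the unsorted array than genes at large. That mean is over 6 arrays, of which 5 are sorted, and leaves out the feeder array. Choosing genes by it favours those high on the sorted arrays. The part of this choice in the shares below was not tested. Among the 2097 genes with a mean log2 signal of at least 10, 37.4% had an unsorted signal below every sorted array and 36.8% a feeder signal below every sorted array. Of the 23 members in that range, 21 were below on the unsorted and 21 on the feeder array. By a stricter rule of size, the unsorted array was at least 2-fold below every sorted array in 11 of 32 members (2.32% of genes): Cmpk2, Ifit1, Ifit3, Isg20, Mx2, Oas1a, Oasl1, Parp14, Rsad2, Trim25 and Usp18.

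The feeder array comes from a table of its own, so its differences are described without a test. Feeder minus sorted had a median of -1.28 over the 32 members, of which 31 were below 0, against 0.09 over all genes. In 23 members the feeder signal was at least 2-fold lower than the sorted mean, against 7.82% of genes. Among members with a higher signal above 500, the differences were largest for Rsad2 (-2.84, 7.14-fold), Mx1 (-2.81, 7.02-fold), Parp14 (-2.59), Ifit3 (-2.46, 5.51-fold), Isg20 (-2.40, 5.27-fold) and Cmpk2 (-2.24, 4.71-fold). Between the feeder and the unsorted array the members were close, with a median of -0.19 over 30 members (-0.13 over all genes) and 21 of 30 below 0. In bulk samples, fewer cells that express these genes and less RNA of them per cell cannot be told apart. The Actb 3′/5′ ratio was 1.87 to 13.5 on the sorted arrays, against 1.01 unsorted and 1.03 on the feeder array. Sorting and RNA integrity thus cannot be told apart either in these differences.

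Sca1+ and Sca1- arrays were compared to ask whether the 2 sorted fractions differ in these genes. In the limma fit 0 of 32 members and 0 of 8591 genes (0%) passed an adjusted p of 0.05; at an unadjusted p under 0.05 there were 0 members, 95 genes higher and 197 genes lower in Sca1+. Of the members 17 were above and 15 below 0, with a median of 0.02 against 0.07 over all genes. The 6 smallest p values belonged to Ifit2 (0.98 ± 0.51, SE), Mx1 (0.80 ± 0.47), Eif2ak2 (-0.61 ± 0.45), Parp9 (0.50 ± 0.39), Ifih1 (0.70 ± 0.67) and Stat2 (0.53 ± 0.51). Ifit2, Mx1 and Parp9 were the 3 members whose Sca1+ arrays both exceeded every Sca1- array. With the set as a term 0 members passed (0.989% of genes did). A difference of about 1 log2 unit, as in Ifit2, was thus not separable from the spread between these 5 arrays.

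Within the sets, each with a single Sca1+ array, the values were as follows. In the first set the median of Sca1+ minus Sca1- was -0.15 with 18 members below 0, in the second it was 0.05 with 13 below 0, and 17 of 32 members had opposite signs, against 40.2% of all genes tested. First-set differences reached 2.05 for Ifit2, 1.75 for Mx1 and 1.22 for Cxcl10 in one direction and -1.56 for Isg20, -1.46 for Irf9 and -1.27 for Oasl1 in the other. In the second set the same genes were at 0.34, 0.12, -0.63, -0.58, -0.33 and 0.01. The interaction of fraction and set, a test chosen after the data were seen, gave 16 members with an unadjusted p under 0.05, against 31.4% of all genes tested, and 0 members and 0 genes (0%) past the adjusted threshold. Its smallest adjusted p in a member (limma) was 0.101. The residual spread of the interaction fit comes only from the 2 Sca1- arrays of the second set.

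**Figure D4:**
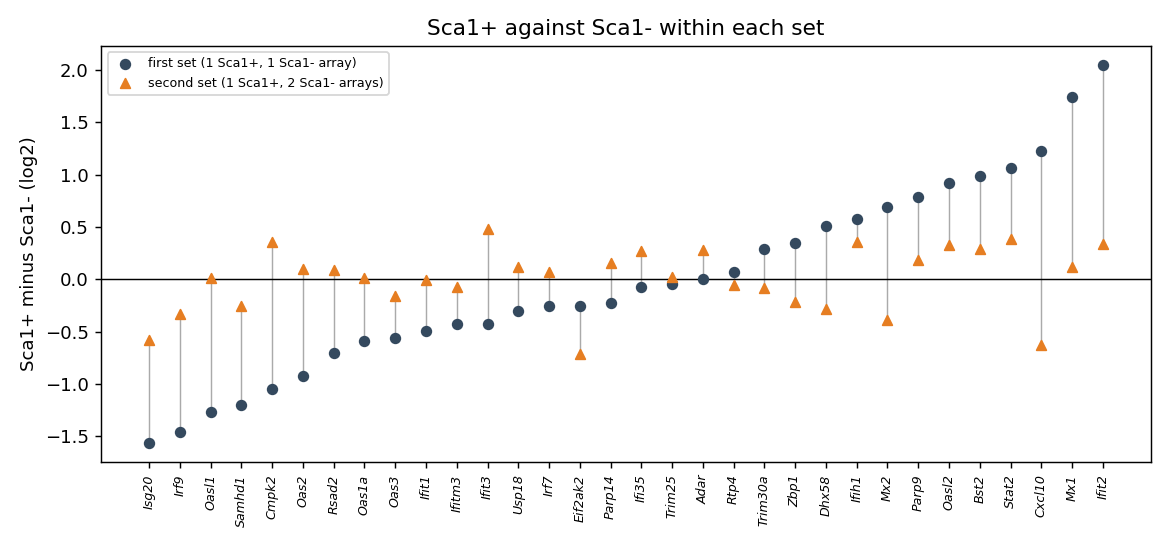
Log2 difference of Sca1+ minus Sca1- within the first set (circles, 1 array against 1) and within the second set (triangles, 1 array against 2) for each of the 32 genes, ordered by the first-set value. Of the 32 genes 17 change sign between the sets (40.2% of all genes tested do), and first-set values run from -1.56 (Isg20) to 2.05 (Ifit2).

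The test of the sets called 10 members, but 0 with no filter on low signals, 5 with a higher floor and 6 with no intensity trend. In the limma fit with group and set, Bst2 (1.81 ± 0.25, SE), Oas3 (0.93 ± 0.23) and Trim30a (0.88 ± 0.22) were higher in the second set, against 11.8% of genes. Samhd1 (-2.34 ± 0.28), Isg20 (-2.23 ± 0.30), Ifih1 (-1.52 ± 0.22), Parp14 (-1.46 ± 0.22), Irf9 (-1.33 ± 0.31), Oas1a (-1.17 ± 0.24) and Trim25 (-0.91 ± 0.20) were lower, against 7.46% of genes. The count of members was 13, 5 and 4 without the first, the second and the third Sca1- array. Such fits have fewer residual degrees of freedom than the 2 of the fit with every array. When either Sca1+ array was left out, 1 Sca1+ array remained. The median over members was then -0.30, against -0.32 with every array. Oas2 did not pass (0.22 ± 0.31).

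By presence of the response element, unsorted minus sorted had a median of -1.10 over the 12 members with the element in the window, -1.37 over the 11 without it and -1.52 over the 9 whose promoter is not in the table. The unsorted array was below every sorted array in 8, 10 and 8 of these. Among the promoters shown, Rsad2, Ifit1, Ifit3 and Oas1a were among the 17 members lower with the set as a term, and Stat2 was not.

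Among genes upstream of the members, of 21 ligands, receptors, kinases and factors 20 were measured and 14 tested; their median for unsorted minus sorted was 0.07, the unsorted array was below every sorted array in 3 and above in 3, and 0 passed with group only. Their feeder minus sorted median was -0.45, with the feeder array below every sorted array in 6 and above in 1. Over all genes the unsorted array was below every sorted array in 17.1% and the feeder array in 17.7%. Over probe sets that passed the filter they were above in 33.2% and 28.2%. Ifnab was at 67.8 to 156 on the sorted arrays and 320 unsorted, Ifngr1, a chain of the interferon gamma receptor, at 938 to 2097 and 2736, and the kinase Jak2 at 493 to 1030 and 299. With the set as a term Jak2 was lower (adjusted p = 0.0242, limma) and Irf2 was higher (adjusted p = 0.0147). Irf2 had signals of 121 and 615 in Sca1+ cells, 127, 795 and 716 in Sca1- cells, 609 unsorted and 589 in feeder cells. Its unsorted signal thus exceeded only the sorted signals of the first set, and was below every signal of the second set. The filter asks for a signal above 100 on 2 or more of the 5 sorted arrays. A gene with signal only on the unsorted array is therefore left out of these counts. Ifnb1, the gene of interferon beta, was not tested for this reason. Ifnb1 was at 27.8 to 118 on the sorted arrays, 306 in unsorted cells and 50 in feeder cells. Also untested were Ifna5 (9.4 to 97.2 sorted, 127 unsorted) and Ifna4 (6.8 to 21.4, 67.4). Untested Ifna2, Ifna11 and Ifng were under 64 on the unsorted array. The highest bacterial control was 170 on both the unsorted and the first-set Sca1- array. It was 55.2 on the first-set Sca1+ array, 60.8 on the feeder array and at most 88.2 on the second-set arrays. Whether the unsorted signals of Ifnab, Ifnb1, Ifna4 and Ifna5, and of Tlr9 below, reflect expression was not tested. Both receptor chains were within the sorted range on the unsorted array: Ifnar1 was at 462 to 862 on the sorted arrays and 851 unsorted, and Ifnar2 at 2173 to 5250 and 3134.

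Of 6 negative regulators 0 passed for unsorted against sorted in either fit, and their median was -0.24; feeder minus sorted had a median of -0.26, with 0 below every sorted array and 1 above. The phosphatase Ptpn2 was at 949 to 3237 on the sorted arrays and 539 unsorted, Socs3 at 513 to 1036 and 1472, and Socs1 at 12.8 to 142 and 25.8. Of 17 sensors and adaptors 11 were measured and tested, with a median of -0.50 and 0 passing with group only; feeder minus sorted had a median of -0.52, with 4 below every sorted array and 0 above. The kinase Tbk1 was at 1717 to 4260 on the sorted arrays, 987 unsorted and 1137 on the feeder array, and was lower with the set as a term (adjusted p = 0.0131, limma). Myd88 was at 1624 to 2352 and 1010 unsorted, while the endosomal DNA receptor Tlr9 was at 32.6 to 162 and 556.

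A further list of 40 interferon-induced genes outside the members, of which 30 were tested, had a median of -0.51 for unsorted minus sorted, and -0.66 for feeder minus sorted. The unsorted array was below every sorted array in 11 of the 30 (17.1% of genes) and above in 6 (33.2% of probe sets). The feeder array was below in 15 (17.7% of genes) and above in 2 (28.2% of probe sets). With group only 0 passed. With the set as a term 7 were lower (7.31% of genes) and 2 higher (759 of 8591 genes). Ms4a4c was at 15303 and 6061 in Sca1+ cells, 2435, 4417 and 4106 in Sca1- cells, 885 unsorted and 422 on the feeder array. It also led this list in Sca1+ against Sca1- (1.45 ± 0.53, SE), where its arrays did not overlap but its difference did not pass the adjusted threshold. The helicase Helz2 was at 1169 to 2093 on the sorted arrays, 528 unsorted and 410 on the feeder array, and the peptide transporter Tap1 at 1122 to 2154, 484 and 412. In Sca1+ against Sca1-, 0 genes of these 4 lists passed with group only. Their medians were -0.02 for ligands, receptors, kinases and factors, 0.14 for negative regulators, 0.45 for sensors and adaptors and 0.30 for the further induced genes. The endosomal RNA receptors Tlr7 (1.27 ± 0.59, SE) and Tlr3 (1.21 ± 0.55) had the smallest p values among sensors; the first-set Sca1- array was lowest for both, at 192 and 79.4.

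The shift of the further list on the unsorted array was smaller than that of the members, and that difference was not tested.

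Markers of several cell types moved across the same arrays. The summed signal of 5 monocyte markers was 60858 and 29784 in Sca1+ cells, 47100, 43520 and 39134 in Sca1- cells, 19241 on the unsorted and 14411 on the feeder array. The largest part of this sum was Csf1r, which is also in the macrophage list, with 18499 to 35387 on the sorted arrays, 12945 unsorted and 10050 on the feeder array. The 5 markers did not move alike: Plac8 was also below every sorted array on both, Ccr2 was within the sorted range on both, and Cx3cr1 (105 to 1110 on the sorted arrays) was above it at 1260 and 1358. The members' summed signal was between 100759 and 185649 on the sorted arrays, 47471 unsorted and 41906 on the feeder array. With the set as a term 2 of the 5 monocyte markers were lower on the unsorted array (7.31% of genes). The macrophage and Kupffer sums on the unsorted (56474) and feeder (51119) arrays were close to those of the Sca1- arrays (52198 to 60962). Granulocyte markers summed to 67207 on the unsorted and 8040 on the feeder array. Fibroblast markers summed to 56752 and 63737 there, and 9 of 10 were higher on the unsorted array with the set as a term (759 of 8591 genes). Plasmacytoid dendritic markers summed to at most 1885 on any array. The part of these cell types in the members' difference was not tested.

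Against the second-set Sca1+ array alone, the feeder sums were 8040 and 9918 for granulocyte, 63737 and 81920 for fibroblast, 14411 and 29784 for monocyte and 51119 and 75375 for macrophage markers (feeder first). The feeder signal was lower than on that array in 31 of 32 members, with a median of -1.26 against -0.01 over all genes. At least 2-fold lower were 22 of 32 members, against 5.51% of genes.

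**Figure D5:**
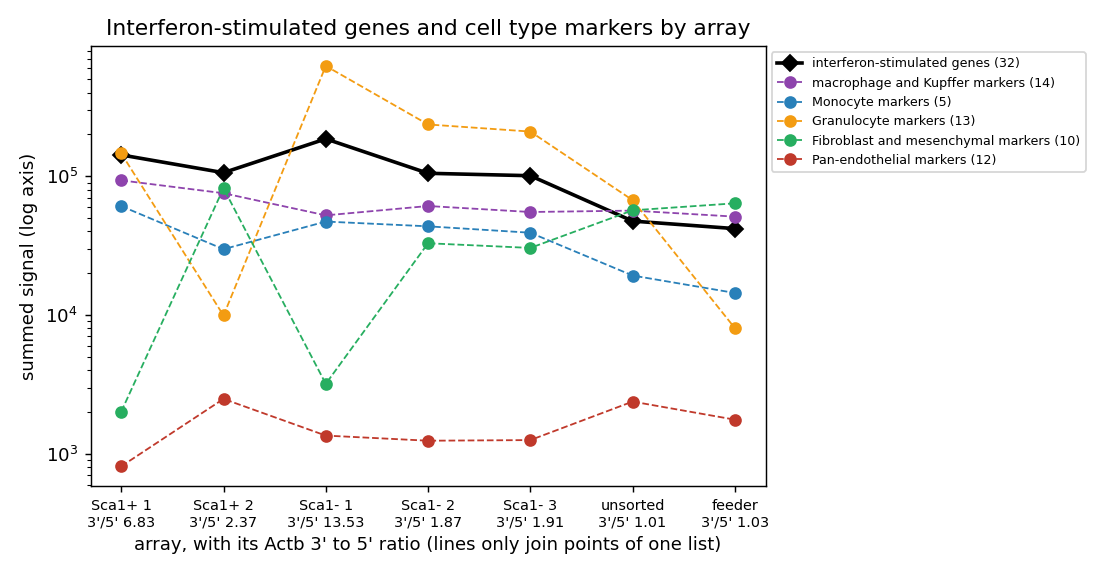
Summed scaled signal (log axis) of the 32 interferon-stimulated genes (black) and of 5 lists of cell type markers on each array, with each array's Actb 3′/5′ ratio under its name; lines only join the points of a list. The members' sum is between 100759 and 185649 on the sorted arrays and 47471 and 41906 on the unsorted and feeder arrays, and the monocyte sum, in which Csf1r is the largest part on each array, is 19241 and 14411 there; the granulocyte and fibroblast sums vary widely among the sorted arrays.

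Of the 32 members 10 have more than 1 probe set, and the one with the highest mean signal was used, a mean to which the sorted arrays contribute most. Of the 47 member probe sets 46 passed the filter; the unsorted array was below every sorted array in 30 of these (15.3% of all probe sets that passed) and above in 4 (33.2%), and the feeder array was below in 32 (16.6%) and above in 2 (28.2%). Of the 15 probe sets not used, the unsorted array was below in 4 and above in 4, so the second probe sets gave no common direction. For Rsad2 one of them ranged from 2336 to 5867 on the sorted arrays with 386 unsorted and 396 on the feeder array, but the other was at 710 to 971 on the sorted arrays, 825 unsorted and 437 on the feeder array. The 4 that were above belong to Cmpk2, Dhx58, Eif2ak2 and Trim30a, and those of Cmpk2, Dhx58 and Eif2ak2 had signals of at most 374 on any of the 6 arrays. For Trim25 neither unused probe set had the unsorted array below every sorted array. When the probe sets of a gene were averaged, the unsorted array was below every sorted array in 24 of 32 members. Members of the OAS, IFIT, IFITM and TRIM families resemble each other in sequence, and how far their probes bind related transcripts is not known here.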

How the data were processed

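Total RNA was measured on 7 single-colour arrays with 22690 probe sets. The authors deposited linear signal intensities with a trimmed mean of 250.1 per array. GCOS was used for the second-set arrays, per the submitters' processing notes; for the first-set arrays, software was not given in the sources used here. The feeder array stands alone in a table of another platform and was not tested. Groups were read from titles; the 2 array sets were inferred from whether a title names a sample number. No 2 arrays were identical.

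Signals were scaled to a 2% trimmed mean of 500, floored at 64 and put on a log2 scale. Only probe sets annotated to 1 gene were used. Where a gene had several, that of highest mean log2 over 6 arrays stood for it. The test covered genes that exceeded 100 on 2 or more of the 5 sorted arrays. It used limma 3.58.1 (R 4.3.3), with lmFit, trended eBayes and Benjamini-Hochberg adjustment at 0.05 over all genes tested. Group was the only term (3 residual degrees of freedom); the set as a term was an alternative (2). The feeder is described by a 2-fold rule. The number of arrays limits the precision. On simulated data the group-only fit found few small changes. For unsorted against sorted it found 1 of 50 2-fold, 4 of 50 4-fold and 44 of 50 16-fold changes. For Sca1+ against Sca1- it found 1, 14 and 48 of 50 in the same order. A gene that did not pass may therefore still differ. Promoters and gene order came from RefSeq (GRCm38.p6).

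The members and lists were chosen with earlier results of these data known. Array by array values were given for the 6 members with the smallest p in each tested comparison, the 6 with the largest feeder difference among those with the higher signal above 500, and the 4 with the highest mean signal; list genes were named by the 3 smallest p where none passed, and receptor chains, Ifnb1, Irf2 and genes with large set differences were named after their values were seen. Alternatives were median scaling, quantile normalization, a lower and a higher floor, adding 32 in its place, no filter or a minimum of 300, all or averaged probe sets, no trend, the set or replicate number as a term, only the compared groups, and leaving out each sorted array. Running them on the fit with the set as a term, and the non-overlap counts, were added after seeing the data. Plots were made in matplotlib 3.10.9.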

Additional observations from a re-analysis of the deposited data

How the results depend on the processing

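The count of members below every sorted array on the unsorted array was between 24 (averaged probe sets) and 30 (median scaling). The share of all genes tested moved too, from 17.1% in the main setting to 13.4% with averaged probe sets and 38.2% with median scaling. All probe sets gave 30 of 47 (15.3% of those that passed the filter). Leaving out any sorted array gave 26 to 27 members, and 18.3% to 24.2% of genes. On the group-only fit 0 members passed for unsorted against sorted under each alternative run without a block. With the deposit set as a block the count was 17. With the replicate number as a block (replicate block) it was 13, and that block changed no call for Sca1+ against Sca1- in the members. Deviations from the group means of same-numbered Sca1+ and Sca1- arrays correlated over all genes tested (r = 0.57 and 0.48). These 2 values are not separate results, because with 2 Sca1+ arrays the deviations of one mirror those of the other. Both pairs also lie within a set, and Sca1+ replicate 2 went equally with Sca1- replicate 3 (r = 0.52), so the arrays share only a number. Under the blocks the calls for Rsad2, Ifit1, Ifit3 and Usp18 were gained.

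With the set as a block, the count was 8 with no filter. Leaving out a Sca1- array gave 11 to 23 members, and 303 to 1469 genes lower in all. The members' median moved to -2.21 with median scaling and -1.10 with all probe sets. Under median scaling the median over members was -2.02 for unsorted minus sorted and -1.64 for feeder minus sorted. For feeder minus unsorted it was 0.17, which turns its sign. Median scaling moved the median of all genes for unsorted minus sorted from 0.17 to -0.50 (quantile normalization to -0.10); relative to it the members' median was -1.47 in the main setting, -1.05 with quantile normalization and -1.52 with median scaling. Of all genes called with the set as a block, 759 were higher and 628 lower in the main setting, 710 and 964 with quantile normalization, and 255 and 1441 with median scaling; averaged probe sets gave 960 and 399, all probe sets 1763 and 937, no filter 1075 and 339 and the higher floor gave 743 and 396. With group only and all genes, 273 genes were called for unsorted against sorted with the higher floor and 870 with no filter, and 1 for Sca1+ against Sca1- with no filter, against 0 in the main setting. Members at least 2-fold different between feeder and unsorted numbered 3 with quantile normalization and 5 with all probe sets. The count of members that differed between the sets was 5 with the higher floor, 0 with no filter and 6 with no trend. It was 4 to 13 when a Sca1- array was left out. The Sca1+ minus Sca1- difference of Ifih1 turned to -0.12 without Sca1+ replicate 1 and was 1.52 without Sca1+ replicate 2. The causes were not tested. Signals near those of the bacterial controls (Cxcl10, and Mx2 and Isg20 on the unsorted array) limit what their differences show.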
